A study of Mus with 8 samples.

Results

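The genes described here are the matrix metalloproteinases (MMPs), the ADAM and ADAMTS proteases, the plasminogen activators and the genes that restrain them, in cultured mouse aortic smooth muscle cells with and without a Cre transgene aimed at Tie2. They are 41 named genes, matched to probes by the gene symbol of the platform annotation. 37 of the 41 had a probe, 68 of the 46237 probes in all, and 35 were detected well enough to be tested among 11859 genes. Mmp15, Adam19, Adamts2 and Adamts5 had no probe under their names and were not analysed here. Mmp8 and Timp4 had 1 probe each, detected on 0 of 8 arrays, so they were not well above background in any culture. Of the 35 tested genes 30 were detected on all 8 arrays, and the others are named with their counts.

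Matrix proteases cut the collagens, elastin and proteoglycans that give the aortic wall its strength. MMPs and ADAMTS proteases are made as inactive precursors and cut matrix proteins outside the cell. ADAMs sit in the membrane and release growth factors and receptors from the cell surface. Plasminogen activators generate plasmin, which cuts fibrin and can activate MMP precursors, and the tissue inhibitors of metalloproteinases (TIMPs) block the active enzymes. In arteries these genes are known from wall remodelling, smooth muscle migration and aneurysm.

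The cells came from aortas of male C57 black 6 mice aged 8 weeks and were taken at passage 1. All mice carried a floxed Tie2 gene, and the 4 cultures called WT had no Cre. The 4 cultures called KO carried Cre driven by SM22α, a promoter active in smooth muscle, so deletion is aimed at that cell type and other cells in a culture may keep the gene. The labels do not say how many mice gave each culture or whether each came from its own mice, so p-values here cover the spread among the 8 cultures, part of which may be technical. Each culture was hybridised to its own Illumina bead array. KO replicates 3 and 4 were on a slide of their own (slide 2), and the other 6 arrays shared slide 1.

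Levels are log2 intensities after background correction and normalization, on a scale from 4.10 to 14.76. Differences between genotypes are log2 fold changes, KO minus WT, with their standard error (SE). Since probes differ in brightness, levels are compared between cultures and not between genes. Scanner medians lay between 94.7 and 128.1, and between 44.9% and 49.5% of probes were detected per array. Tek, which encodes Tie2, was lower in each KO culture than in each WT culture, with means of 5.24 and 6.72. Its log2 fold change was -1.48 (SE 0.27), with a limma adjusted p of 0.81, over the threshold of 0.05. The two-sided exact permutation p was 0.029, the smallest the design allows, and groups without overlap were seen in 3.28% of all genes. Of the contractile smooth muscle markers 16 of 18 could be tested, and Acta2 lay between 14.56 and 14.64 on all arrays, near the top of the scale. By sign 16 of those 16 were higher in KO, with a median log2 fold change of 0.59 (0.69 within slide 1). Without WT replicate 2, 14 were higher, with a median of 0.43. Of all 11859 genes 5888 were higher and 5971 lower by sign. At an unadjusted limma p under 0.05 there were 4 of the 16, where 681 of all genes passed. Without WT replicate 2 there was 1, where 495 of all genes passed. Of the leukocyte markers 21 of 26 could be tested, and their summed linear intensity ranged from 6269 to 60770 in WT and from 4533 to 33480 in KO. By sign 19 of the 21 were lower in KO, with a median of -0.89, while 5 were lower within slide 1, where the median was 0.16. Without WT replicate 2, and equally without KO replicate 3, 16 were lower, with a median of -0.30. With the replicate number as a block, a pairing the labels do not give, the median stayed at -0.89. Under that block 12 of the 21 had an unadjusted limma p under 0.05, where 1005 of all 11859 genes did. Without the block 2 of the 21 did, where 681 of all genes did. Of the interferon response genes 9 of 9 tested were lower in KO by sign, with a median of -0.74, and 5 were lower without WT replicate 2, with a median of -0.10. Of the endothelial markers 10 of 14 could be tested. Tek, Cdh5, Emcn, Egfl7, Esam, Eng and Ptprb were detected on all 8 arrays. Pecam1 and Cldn5 were detected on at most 7 arrays and Robo4 on at most 4. Kdr, Tie1 and Vwf were detected on at most 3, 2 and 1 arrays, and Erg on 0.

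0 of the 35 tested genes passed an adjusted p of 0.05 between KO and WT in limma, against 0% of all tested genes. At an unadjusted p under 0.05 there were 2, Adam12 and Adamts1, both lower in KO, where 5.74% of all genes pass in either direction and 3.13% pass and are lower in KO. 2 of 35 is near that background. By sign 24 of the 35 were lower in KO, against 50.3% of all genes, and the median log2 fold change was -0.11. The median over all genes was 0.00. In 0 of the 35 were the groups free of overlap, where 3.28% of all genes were. With slide as a block, which compares the WT cultures with the KO cultures of slide 1, the median was -0.02. Under that block 14 of the 35 turned sign, a share not counted over all genes. Without WT replicate 1 the median was -0.24, and 4 of the 35 had an unadjusted p under 0.05, where 8.00% of all genes did. The part of the contractile, leukocyte and interferon markers in the lower protease values was not tested.

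For 32 of the 35 genes the difference between the genotypes was smaller than the SD between cultures of 1 genotype. That share was not counted over all genes, so it is no trait of these genes. The 8 tested secreted MMPs had a median SD between cultures of 1 genotype of 1.31 on the log2 scale, against 0.35 for all tested genes. The membrane MMPs stood at 0.36, the ADAMs at 0.44, the ADAMTS genes at 0.57, the plasmin system at 0.63 and the inhibitors at 0.37. Among the inhibitors Timp1, Timp3 and Serpinf1, with SDs of 0.20, 0.13 and 0.26, lay near the top of the scale. Whether the top of the scale narrows their spread was not tested. Without background correction the median was 0.92 for the secreted MMPs and 0.21 for all genes. The standard error over the beads of an array measures technical precision. Its median over the 8 arrays was 0.045 to 0.106 log2 units for the 35 genes, on 17 to 75 beads. It was taken from scanner intensities before background correction, so it is not on the scale of the SDs of corrected levels.

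**Figure D1:**
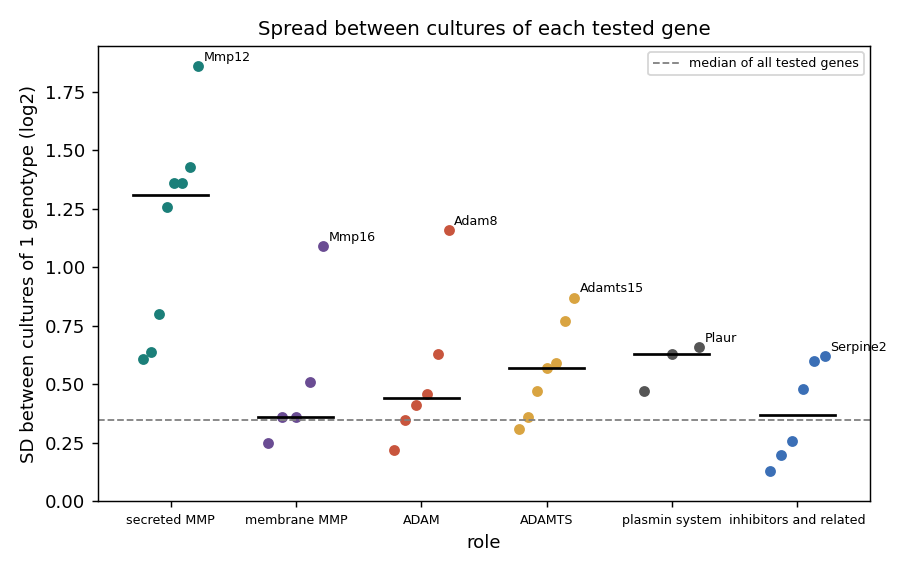
SD between cultures of 1 genotype (log2, vertical axis) for the 35 tested genes by role (horizontal axis). Each point is a gene, the solid bars are medians and the dashed line is the median of all tested genes, 0.35. Mmp12, at 1.86, is the most variable, and secreted MMPs have a median of 1.31.

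WT replicate 2 was the highest of the 8 cultures for 11 of the 35 genes and the lowest for 5, and over all genes it was highest for 21.01% and lowest for 21.3%. KO replicate 3 was highest for 7 and lowest for 9, against 17.8% and 16.4% of all genes. WT replicate 1 was highest for 3 and lowest for 8, against 9.17% and 12.1% of all genes. WT replicate 2 also had the lowest mean of contractile markers, at -0.98 relative to each gene's mean over cultures, where the other cultures lay between -0.33 and 0.38. It had the highest mean of interferon response genes, at 2.45 against -0.63 to 0.01 in the others.

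**Figure D2:**
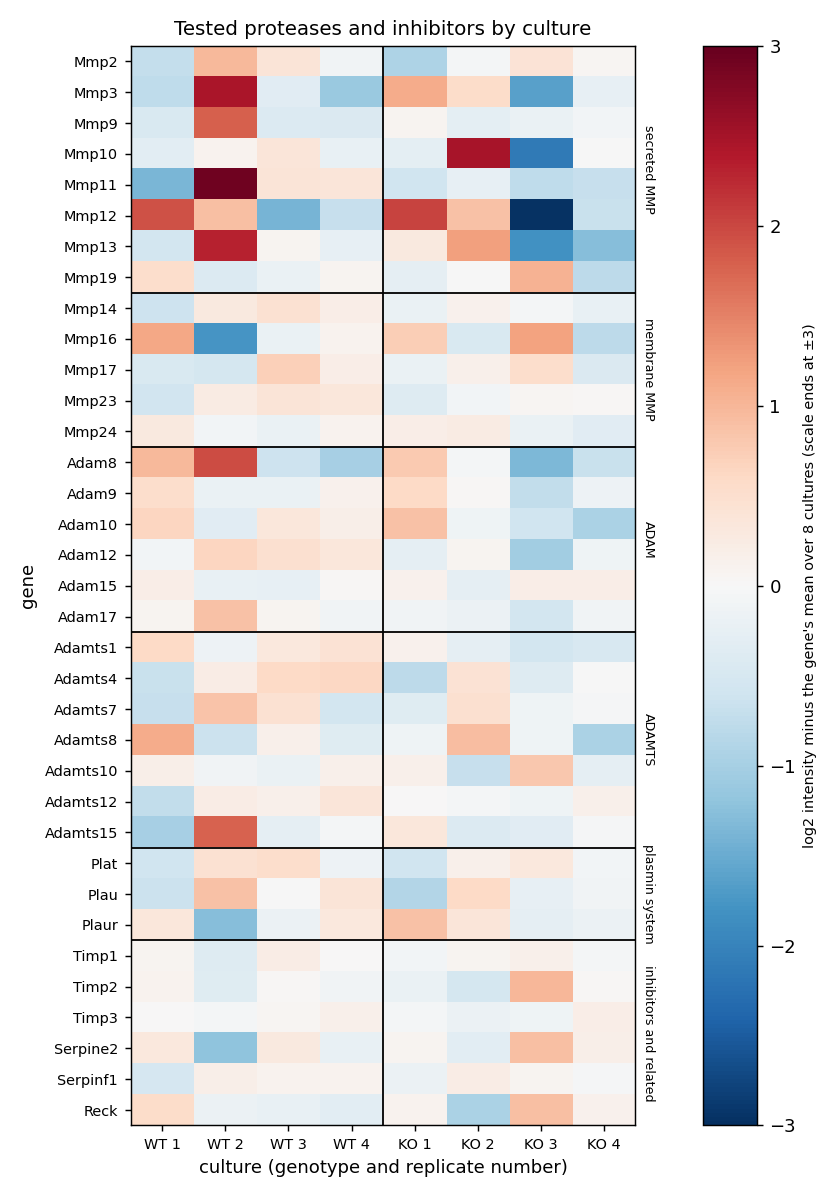
Log2 intensity of each of the 35 tested genes (rows, grouped by role) in each culture (columns), minus the gene's mean over the 8 cultures. WT 2 is the highest culture for Mmp3, Mmp11, Mmp13 and Mmp9, and KO 3 is the lowest for Mmp3, Mmp10, Mmp12 and Mmp13.

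Among the secreted MMPs, Mmp2 encodes gelatinase A, a protease of smooth muscle and fibroblasts that cuts denatured and basement membrane collagen. Mmp2 stood at 11.93, 13.60, 13.01 and 12.52 over WT replicates 1 to 4 and at 11.70, 12.57, 13.04 and 12.70 over KO replicates 1 to 4. The groups overlapped almost entirely, with the highest value in WT replicate 2 and the lowest in KO replicate 1. Between genotypes the value was -0.26 (SE 0.40) with a 95% confidence interval from -1.17 to 0.64. Its limma adjusted p was 0.91.

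Mmp11, which encodes stromelysin 3, a protease of stromal cells, had the largest difference of the 35. Its levels were 7.20, 11.48, 8.96 and 8.94 over WT replicates 1 to 4 and 7.97, 8.33, 7.82 and 7.87 over KO replicates 1 to 4. The KO cultures lay close together, and WT replicate 1 was below all of them while WT replicate 2 was far above. The genotypes differed by -1.15 (SE 0.75), and the limma adjusted p was 0.83. Without WT replicate 2 it was -0.37, and without WT replicate 1 it was -1.79.

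Mmp13, a collagenase, stood at 8.46, 11.32, 9.09 and 8.75 over WT replicates 1 to 4 and at 9.30, 10.24, 7.18 and 7.72 over KO replicates 1 to 4. WT replicate 2 was the highest and the KO cultures of slide 2 were the lowest. The fold change on the log2 scale was -0.79 (SE 0.81), and 0.37 within slide 1. Leaving out WT replicate 2 gave -0.15, and leaving out KO replicate 2 gave -1.33. Its other probes gave -0.53 and -0.08, the latter from a probe detected on 1 WT array and 3 KO arrays.

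Mmp3, which encodes stromelysin 1, an activator of other MMP precursors, is given in full because of its range, and was chosen after its values were seen. It stood at 9.74, 12.95, 10.17 and 9.39 over WT replicates 1 to 4 and at 11.63, 11.06, 8.87 and 10.26 over KO replicates 1 to 4. WT replicate 2 was more than 2 log2 units above the other WT cultures, and the groups overlapped across the range. The genotypes differed by -0.10 (SE 0.85), and its other probes gave 0.11 and 0.08. Each of the 3 probes was highest in WT replicate 2, at 12.95, 12.47 and 11.78. Without WT replicate 2 the brightest probe gave 0.69, and within slide 1 it gave 0.78.

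In the RefSeq order of protein-coding genes Mmp13, Mmp12, Mmp3 and Mmp10 belong to 1 unbroken run of 10 MMP genes. Mmp12 encodes the macrophage elastase and Mmp10 stromelysin 2. Through its brightest probe each of these 4 genes was lowest in KO replicate 3, at 7.18, 5.71, 8.87 and 4.30. Of all genes 16.4% were lowest there, and the value of Mmp10 lay near the bottom of the scale, 4.10. The other retained Mmp13 probes were lowest elsewhere. One was lowest in KO replicate 4, at 4.59 against 4.61 in KO replicate 3, and the other in WT replicate 3, at 4.25. The highest culture of the 4 genes differed, namely WT replicate 2 for Mmp13 and Mmp3, KO replicate 1 for Mmp12 and KO replicate 2 for Mmp10, at 8.91. Mmp1a, an interstitial collagenase gene within the same run, was highest in KO replicate 3, at 7.53, against 5.88 to 6.86 in the other cultures. Mmp10 differed by 0.03 (SE 0.81) over all cultures and by 1.11 within slide 1. Mmp19, a further secreted MMP, had a genotype difference of 0.00 (SE 0.38). Mmp10 and Mmp19 were each detected on 4 WT and 3 KO arrays.

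Mmp12, Mmp9 and Adam8 are proteases known from macrophages and other leukocytes, so their levels were set beside the mean of the 21 tested leukocyte markers. That mean, relative to each marker's mean over cultures, was 1.29, 1.58, -1.25 and -0.08 over WT replicates 1 to 4 and 0.77, 0.31, -1.75 and -0.88 over KO replicates 1 to 4. Mmp12 stood at 10.58, 9.56, 7.26 and 7.98 over WT replicates 1 to 4 and at 10.70, 9.54, 5.71 and 7.99 over KO replicates 1 to 4. The 4 cultures with the highest leukocyte means were the 4 with the highest Mmp12, and they came from both genotypes. Over the 8 cultures Pearson's r was 0.91 (permutation p = 0.0035, adjusted 0.0052 over 3 relations) and Spearman's rho was 0.88 (permutation p = 0.0072, adjusted 0.011). The permutations for Mmp12, Adam8 and Mmp9 take the 8 cultures as independent. By their deviations over all genes, 4 of 4 WT and 3 of 4 KO cultures were closest to their own replicate number. If same-numbered cultures share an origin, these p-values are too small. Without KO replicate 3 and WT replicate 2, the cultures farthest from the median of the marker mean, r was 0.94. Within slide 1 r was 0.83 (6 cultures, permutation p = 0.053). Between the genotypes Mmp12 differed by -0.36 (SE 1.10), by 1.28 within slide 1 and by 0.57 without KO replicate 3. Slide 1 holds KO replicates 1 and 2, the KO cultures with the highest Mmp12. With the replicate number as a block the difference stayed at -0.36, with an SE of 0.32.

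Adam8, which encodes a membrane protease of leukocytes and was detected on 4 WT and 3 KO arrays, stood at 6.89, 7.86, 5.29 and 4.92 over WT replicates 1 to 4 and at 6.69, 5.85, 4.56 and 5.25 over KO replicates 1 to 4. It too was highest where the leukocyte markers were highest and lowest in KO replicate 3. Pearson's r was 0.91 (permutation p = 0.0014, adjusted 0.0042) and Spearman's rho was 0.90 (permutation p = 0.0046, adjusted 0.011). Pearson's r was 0.83 without the cultures farthest from the median and 0.87 within slide 1 (6 cultures, permutation p = 0.019). Mmp9, gelatinase B, reached 7.01 in WT replicate 2, where the other cultures lay between 4.77 and 5.31, and its r was 0.50 (permutation p = 0.19, adjusted 0.19) with a rho of 0.19 (permutation p = 0.66, adjusted 0.66). Without WT replicate 2 and KO replicate 3 its r was 0.04. Within slide 1, which holds WT replicate 2 and not KO replicate 3, r was 0.59 (6 cultures, permutation p = 0.11). In KO replicate 3 Mmp9 stood at 5.03, within the range of the other cultures. The relation without WT replicate 2 alone was not computed. Adam8 had a genotype difference of -0.65 (SE 0.69), which was 0.03 within slide 1, -0.11 without WT replicate 2 and -1.09 without WT replicate 4. Mmp9 differed by -0.24 (SE 0.48), and by 0.32 without WT replicate 2. The part of leukocyte RNA in these differences was not tested, and in bulk cultures more cells of a type and more RNA per cell cannot be told apart.

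**Figure D3:**
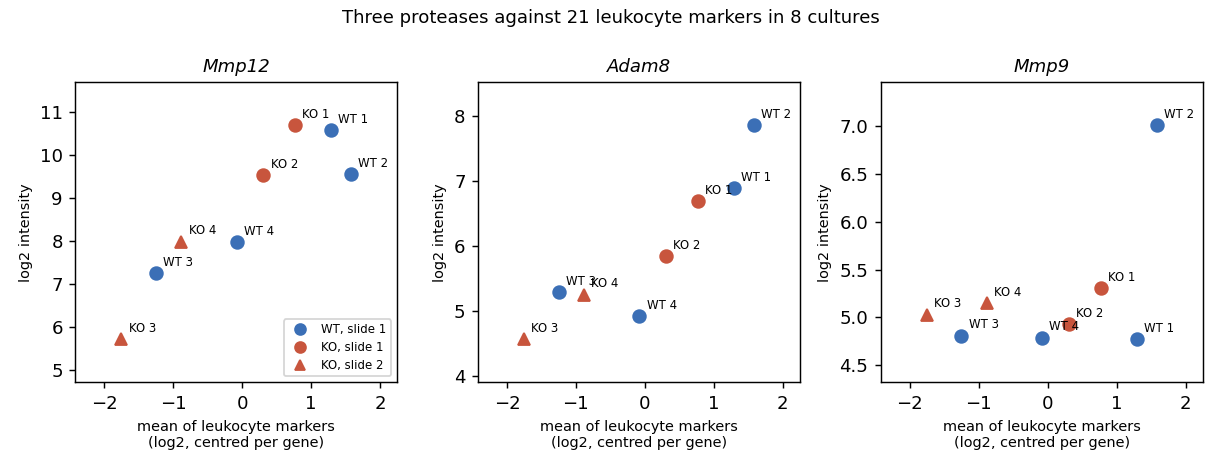
Log2 intensity of Mmp12, Adam8 and Mmp9 (vertical axes) against the mean of 21 leukocyte markers (horizontal axis, log2, each marker centred on its mean over cultures). Each point is a culture, coloured by genotype with the slide as its shape. Mmp12 and Adam8 are lowest in KO 3, and WT 1, WT 2 and KO 1 are among the 4 highest for both; Mmp9 reaches 7.01 in WT 2 and lies at 5.31 or below in the other 7.

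Of the membrane-bound MMPs 5 were tested, with log2 fold changes between -0.19 and 0.36 and a median of -0.05. Mmp14 encodes MT1-MMP, a collagenase of the cell surface that activates the Mmp2 precursor together with Timp2. It stood at 12.92, 13.84, 14.00 and 13.73 over WT replicates 1 to 4 and at 13.34, 13.67, 13.47 and 13.32 over KO replicates 1 to 4. The KO cultures lay within the WT range, and WT replicate 1 was the lowest of all. Between genotypes the value was -0.17 (SE 0.24), with a 95% confidence interval from -0.72 to 0.38. Mmp23, a membrane-anchored family member, stood at 10.79, 11.62, 11.76 and 11.71 in WT and at 10.98, 11.29, 11.44 and 11.41 in KO, each in the order of replicates 1 to 4. WT replicate 1 was again the lowest, and KO minus WT came to -0.19 (SE 0.24). Without WT replicate 1 it was -0.42, and that of Mmp14 was -0.40. Mmp16, MT3-MMP, stood at 0.36 (SE 0.65), through a value of 4.96 in WT replicate 2 against 5.93 to 7.94 in the others. Without that culture it was -0.17. Mmp17 and Mmp24 stood at 0.03 (SE 0.32) and -0.05 (SE 0.19).

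Among the ADAMs 5 of 6 were lower in KO by sign, with a median of -0.43, and the median was 0.01 within slide 1. Adam12, which encodes a meltrin that releases growth factors such as HB-EGF, stood at 7.85, 8.58, 8.41 and 8.26 over WT replicates 1 to 4 and at 7.65, 8.01, 6.88 and 7.79 over KO replicates 1 to 4. WT replicate 1 lay below KO replicate 2, so the groups overlapped, and KO replicate 3 was the lowest. The difference of -0.69, or 1.62-fold, had an SE of 0.27, an unadjusted limma p of 0.031 and an adjusted p of 0.83. The exact permutation p, two-sided, was 0.057, where 0.029 is the smallest the design allows. It was -0.46 without KO replicate 3, -0.45 within slide 1 and -0.47 in the authors' value table. A second probe, detected on 2 WT and 3 KO arrays, gave 0.23.

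Adam17 encodes TACE, the main sheddase of tumour necrosis factor and of several epidermal growth factor ligands. It stood at 9.10, 9.90, 9.10 and 8.92 over WT replicates 1 to 4 and at 8.93, 8.86, 8.47 and 8.93 over KO replicates 1 to 4. WT replicate 2 was well above the rest, and WT replicate 4 lay within the KO range. The fold change on the log2 scale was -0.46 (SE 0.24), with an adjusted limma p of 0.83 and an exact permutation p of 0.086. Without WT replicate 2 it was -0.24, and a second probe, detected on all 8 arrays, gave 0.15.

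Adam10, the main sheddase of Notch and cadherins, stood at 7.79, 6.82, 7.49 and 7.32 over WT replicates 1 to 4 and at 8.04, 7.03, 6.55 and 6.20 over KO replicates 1 to 4. The KO cultures of slide 2 were the lowest of the 8 and KO replicate 1 was the highest. The difference of -0.40 (SE 0.39) was 0.18 within slide 1 and 0.11 through a second probe detected on all 8 arrays. Adam9, a further sheddase, stood at 12.57, 11.86, 11.85 and 12.19 in WT and at 12.65, 12.10, 11.32 and 11.89 in KO, each in the order of replicates 1 to 4. The groups overlapped, and KO minus WT came to -0.13 (SE 0.29). Adam15, at 0.12 (SE 0.18), was the 1 tested ADAM higher in KO by sign, and its other retained probes gave -0.29 and -0.44.

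The 7 tested ADAMTS genes had log2 fold changes of 0.00 or below, with a median of -0.14. Adamts1, which encodes a protease that cuts versican and aggrecan, stood at 9.35, 8.59, 9.05 and 9.17 over WT replicates 1 to 4 and at 8.86, 8.47, 8.18 and 8.27 over KO replicates 1 to 4. The groups overlapped through KO replicate 1, which lay above WT replicate 2. The difference of -0.60, or 1.51-fold, had an SE of 0.22, an unadjusted limma p of 0.025, an adjusted p of 0.83 and an exact permutation p of 0.057. It ranged from -0.75 to -0.49 when 1 culture was left out and was -0.38 within slide 1. A second probe, also detected on all 8 arrays, stood at 7.68, 7.02, 7.49 and 7.45 in WT and at 7.53, 6.94, 8.54 and 8.00 in KO, each in the order of replicates 1 to 4. That probe gave 0.34, and KO replicates 3 and 4, the lowest through the first probe, were the highest through the second.

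**Figure D4:**
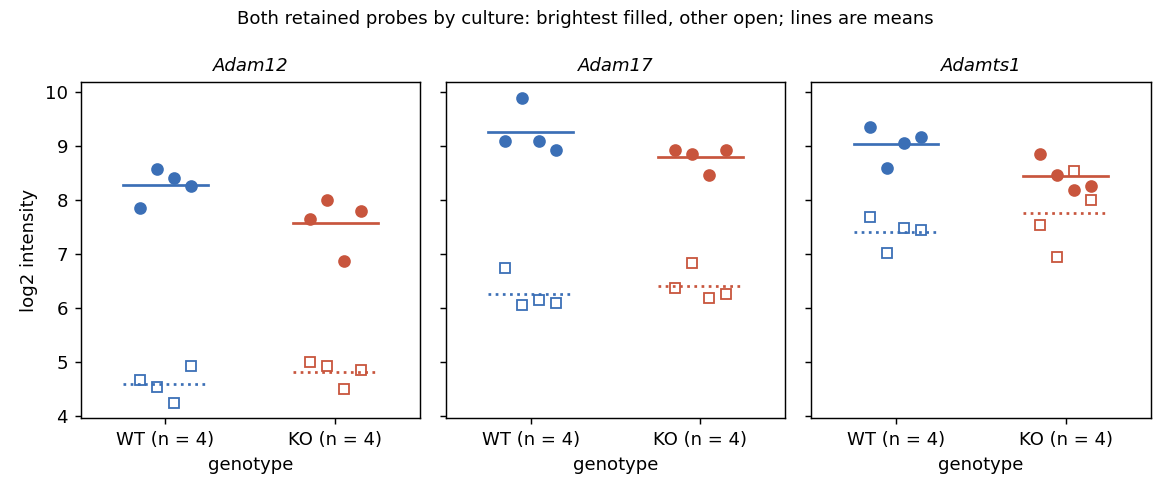
Log2 intensity of Adam12, Adam17 and Adamts1 in the 4 WT and 4 KO cultures through each gene's 2 retained probes. Filled circles are the brightest probe and open squares the other, with means as solid and dotted lines. The brightest probes are lower in KO by 0.69, 0.46 and 0.60, and the other probes are higher by 0.23, 0.15 and 0.34.

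Adamts4, an aggrecanase, stood at 7.81, 8.70, 9.08 and 9.10 over WT replicates 1 to 4 and at 7.69, 8.93, 8.10 and 8.47 over KO replicates 1 to 4. Replicate 1 was the lowest of each genotype, and KO minus WT came to -0.38 (SE 0.35). Adamts12, which encodes a protease of cartilage oligomeric matrix protein, stood at 10.34, 11.30, 11.21 and 11.42 in WT and at 11.08, 11.01, 10.95 and 11.23 in KO, each in the order of replicates 1 to 4. Its group means were both 11.07, with SDs of 0.50 and 0.12 (n = 4 each), and the 95% confidence interval of the difference ran from -0.55 to 0.55. Adamts7, Adamts8, Adamts10 and Adamts15 differed by -0.04 (SE 0.37), -0.14 (SE 0.47), -0.01 (SE 0.30) and -0.23 (SE 0.52). Adamts8 was detected on 2 WT and 3 KO arrays and Adamts15 on 3 in each group, so these lay near background. Adamts15 reached 7.20 in WT replicate 2, where the others lay between 4.42 and 5.75.

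Both plasminogen activator genes and the urokinase receptor gene were tested. Plat, tissue plasminogen activator, stood at 10.10, 11.14, 11.22 and 10.53 over WT replicates 1 to 4 and at 10.09, 10.84, 11.01 and 10.60 over KO replicates 1 to 4. Cultures of the same number lay close to each other, though the labels do not pair them, and KO minus WT came to -0.11 (SE 0.30). Plau, urokinase, stood at 7.02, 8.54, 7.66 and 8.05 in WT and at 6.79, 8.27, 7.41 and 7.56 in KO, each in the order of replicates 1 to 4. Replicate 1 was the lowest and replicate 2 the highest in both genotypes, and KO minus WT came to -0.31 (SE 0.39). Plaur, which binds urokinase at the cell surface, stood at 9.44, 7.81, 8.91 and 9.41 in WT and at 9.98, 9.46, 8.83 and 8.91 in KO, each in the order of replicates 1 to 4. WT replicate 2 was the lowest, and the difference of 0.40 (SE 0.40) was 0.04 without it.

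The 6 tested inhibitors had log2 fold changes from -0.08 to 0.42, with a median of 0.07. Timp1, an inhibitor of most MMPs, stood at 14.45, 13.98, 14.59 and 14.38 over WT replicates 1 to 4 and at 14.30, 14.46, 14.52 and 14.32 over KO replicates 1 to 4. These values lay just under the top of the scale of 14.76, and WT replicate 2 was the lowest. The genotypes differed by 0.05 (SE 0.17), with a 95% confidence interval from -0.33 to 0.43, and a second probe gave 0.07. Timp3, the inhibitor that binds to the matrix and also blocks Adam17, stood at 14.12, 14.03, 14.16 and 14.24 in WT and at 14.05, 13.92, 13.97 and 14.29 in KO, each in the order of replicates 1 to 4. The groups overlapped within 0.37 log2 units, also near the top of the scale. Between genotypes the value was -0.08 (SE 0.14). A dimmer Timp3 probe, between 10.51 and 11.48, gave -0.22.

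Timp2, which blocks Mmp2 and also helps Mmp14 to activate it, stood at 12.91, 12.46, 12.84 and 12.71 over WT replicates 1 to 4 and at 12.62, 12.29, 13.82 and 12.85 over KO replicates 1 to 4. KO replicate 3 stood apart, and without it the difference of 0.17 (SE 0.31) was -0.14. Serpine2, protease nexin 1, inhibits thrombin, urokinase and plasmin. It stood at 12.37, 10.85, 12.34 and 11.83 in WT and at 12.14, 11.75, 12.95 and 12.23 in KO, each in the order of replicates 1 to 4. WT replicate 2 was the lowest and KO replicate 3 the highest, and the difference of 0.42 (SE 0.38) was 0.09 without WT replicate 2 and 0.10 within slide 1.

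Serpinf1 encodes PEDF, which has the fold of a serine protease inhibitor and does not inhibit proteases. It stood at 13.82, 14.51, 14.43 and 14.44 over WT replicates 1 to 4 and at 14.15, 14.55, 14.42 and 14.30 over KO replicates 1 to 4. WT replicate 1 was the lowest in a narrow range near the top of the scale, and KO minus WT came to 0.06 (SE 0.19). A dimmer probe gave -0.42. Reck, a membrane-anchored inhibitor of several MMPs, had a genotype difference of 0.08 (SE 0.37) through its brightest probe and of -0.48 through the other, both detected on all 8 arrays. In all, 14 of the 35 genes had several retained probes, and in 9 of these the probes differed in sign. The share among all genes with several retained probes was not counted. In Adamts1, Adam17, Adam10, Adam15, Reck and Serpinf1 the signs differed between probes detected on all 8 arrays, as at -0.60 and 0.34 in Adamts1. In Mmp3 the differences were near 0. In Mmp24 and Adam12 the other probe was dim, detected on 4 and 5 arrays.

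**Figure D5:**
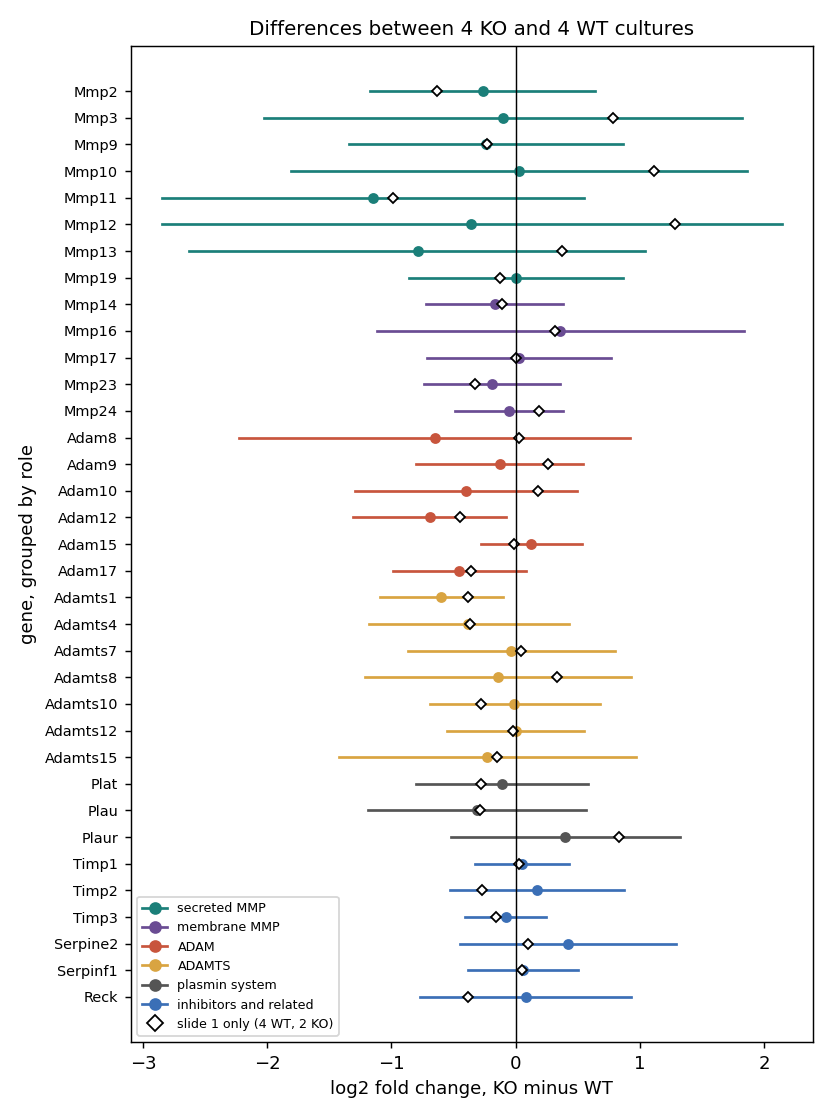
Log2 fold change of KO relative to WT (horizontal axis) for the 35 tested genes, grouped by role (colours). Circles are the estimates from 8 cultures with 95% confidence intervals as lines, and open diamonds are the values within slide 1. The intervals of Adam12 and Adamts1 alone leave out 0, and Mmp12 has the widest interval.

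Other genes of the pathway came from lists fixed by role. Of 31 further MMP, ADAM and ADAMTS genes 9 were tested, and 0 had an unadjusted p under 0.05. The smallest p values were those of Adam11, at -0.65 (SE 0.29), and of Mmp1a, at 0.57 (SE 0.29). Of 23 further inhibitors and plasmin system genes 14 were tested, 6 higher and 8 lower by sign, and 1 had an unadjusted p under 0.05, near the 5.74% of all genes. That gene was Lrp1, the endocytic receptor that clears protease and inhibitor complexes. Lrp1 stood at 8.55, 9.47, 8.98 and 8.82 over WT replicates 1 to 4 and at 8.61, 8.15, 7.54 and 7.36 over KO replicates 1 to 4. The KO cultures of slide 2 were the lowest and KO replicate 1 lay within the WT range. The fold change on the log2 scale was -1.04 (SE 0.31), with an unadjusted limma p of 0.0089 and an adjusted p of 0.83. Serpinb2, plasminogen activator inhibitor 2, stood at 6.83, 4.24, 4.22 and 4.81 in WT and at 7.84, 7.56, 4.65 and 7.32 in KO, each in the order of replicates 1 to 4. It was low in KO replicate 3 and in WT replicates 2 to 4, and KO minus WT came to 1.82 (SE 0.81), with an adjusted limma p of 0.83.

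Of 21 activators and cofactors 20 were tested, 14 higher and 6 lower by sign, and 1 had an unadjusted p under 0.05, again near the share of all genes. Itgav, an integrin subunit that can bind MMPs at the cell surface, lay between 7.93 and 8.48 in WT and between 8.55 and 9.45 in KO. Its groups did not overlap, which held for 1 of the 20 and for 3.28% of all genes, and the difference of 0.54 (SE 0.23) had an adjusted limma p of 0.83. Fap, a serine protease of activated fibroblasts, stood at -1.39 (SE 0.75). Furin, which cuts the precursors of membrane MMPs and ADAMs, stood at 0.02 (SE 0.17).

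Of 21 matrix proteins cut by these enzymes 20 were tested, 10 higher and 10 lower by sign, with 1 at an unadjusted p under 0.05, where 5.74% of all genes had one. Col3a1, a fibrillar collagen, stood at 12.42, 13.91, 13.44 and 13.43 over WT replicates 1 to 4 and at 12.82, 12.73, 11.19 and 11.63 over KO replicates 1 to 4. The lowest values were those of slide 2, and KO minus WT came to -1.21 (SE 0.44), with an adjusted limma p of 0.83. Thbs1, thrombospondin 1, stood at 0.66 (SE 0.31). Of 16 proteins shed by ADAMs 13 were tested and 0 had an unadjusted p under 0.05, with Sdc4 at 0.34 (SE 0.19) and Cd44 at 0.51 (SE 0.31).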

How the data were processed

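Aortic smooth muscle cell cultures, 4 WT and 4 KO, were grouped by the title labels. Per the file headers, the deposited scanner table gives for each probe the mean intensity over its beads, the SD and count of those beads and a p-value of detection, all before normalization. A second deposited table holds intensities normalized by the authors, by a method not given in the sources used here. Its array medians lay between 113 and 116, on a linear scale that followed the scanner ranks. The probe names of the scanner table are not those of its values (Spearman -0.0083 to -0.0047), so rows were paired by their ranks on the 8 arrays, which matched 46237 of 46237 one to one. Symbols came from the platform annotation, updated through the RefSeq table of GRCm38.p6, which was used for names and gene order only.

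Background correction and quantile normalization used the neqc function of limma 3.58.1 (R 4.3.3, offset 16). Neqc takes detection p-values as coming from negative controls, which was not shown for these, so levels of dim genes are uncertain. The 21275 probes detected (p-value under 0.05) on 4 or more arrays were kept, and each gene was represented by its brightest kept probe. KO and WT were compared with lmFit and eBayes, two-sided, with Benjamini-Hochberg adjustment over 11859 genes and a threshold of 0.05. The fit was tested on simulated data. Exact permutation tests used 70 assignments. The number of arrays limits the precision. Values in all cultures were given for 11 members fixed by role and, per role, for the brightest and the 2 with the smallest p. Members and lists were chosen with earlier results of these data known. Alternatives were the authors' table, 2 other background corrections, 2 detection filters, the mean of probes, slide, the replicate number and each culture left out. Replicate numbers were to count as pairs only if each same-numbered pair had a correlation of deviations over 0.1, and 3 of the 4 did.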

Additional observations from a re-analysis of the deposited data

Results flagged for a closer look

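6 of the 70 sets of 4 cultures (35 genes in each genotype), or 8.57%, held a culture whose gap to the nearest other culture exceeded Dixon's 95% limit for 4 values. Chance flags about 1 in 20 sets. Mmp9 stood at 7.01 in WT replicate 2, against 4.77 to 4.81 in the other WT cultures. In that culture the leukocyte markers averaged 1.58 and the interferon response genes 2.45 above their means over cultures, and their part in the level of Mmp9 was not tested.

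WT replicate 1 was set apart in 3 genes. Mmp23 stood there at 10.79 against 11.62 to 11.76 in the other WT cultures, Serpinf1 at 13.82 against 14.43 to 14.51 and Reck at 8.88 against 8.02 to 8.15. Among the KO cultures, Adam15 stood at 10.15 in replicate 2 against 10.55 to 10.63 in the others, and Adam17 at 8.47 in replicate 3 against 8.86 to 8.93.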

How the results depend on the processing

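Of the 17 alternatives none brought any of the 35 genes, or any of all tested genes, past an adjusted p of 0.05 in limma, and the smallest adjusted p of a member was 0.547. Members with an unadjusted p under 0.05 numbered 0 with the mean over kept probes, with slide blocked, in slide 1 alone, and 0 to 4 when 1 culture was left out (4 without WT replicate 1, 1 without WT replicate 2 or KO replicate 4, 0 without WT replicate 3, WT replicate 4 or KO replicate 3). The other alternatives gave 2. The median log2 fold change moved to -0.02 under either slide alternative, and -0.24 to -0.08 when 1 culture was left out. Same-numbered WT and KO cultures had correlations of their deviations between 0.0631 and 0.318, over 0.1 in 3 of 4 pairs, and all 4 WT and 3 of the 4 KO cultures were closest to their own number. With the replicate number as a block, 0 genes and 0 members passed, 2 members had an unadjusted p under 0.05, the median stayed at -0.11, and 1005 genes in place of 681 had an unadjusted p under 0.05. For Plau that block gave -0.31 with an SE of 0.14 (unadjusted limma p 0.073, adjusted 0.606), where the SE without it was 0.39. Without a detection filter that count was 1117 of 20289 genes. 23 members turned sign somewhere and 12 did not. Turns of sign were not counted over all genes, here or under single alternatives. Members near 0, such as Mmp17 at 0.03, are among the 23. The 12 include Adamts12, whose group means were both 11.07, so that it had no sign to keep. When 1 culture was left out it ran from -0.24 to 0.12.

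Under the slide block, and equally in slide 1 alone, the log2 fold change turned to 0.78 for Mmp3, 1.28 for Mmp12, 0.37 for Mmp13, -0.13 for Mmp19, 0.00 for Mmp17, 0.19 for Mmp24, 0.03 for Adam8, 0.26 for Adam9, 0.18 for Adam10, -0.01 for Adam15, 0.04 for Adamts7, 0.33 for Adamts8, -0.27 for Timp2 and -0.38 for Reck. With the mean over kept probes it turned to 0.03 for Mmp3, 0.23 for Mmp24, -0.20 for Adam15, -0.18 for Serpinf1 and -0.20 for Reck. For Adamts10 it turned to 0.06 in the authors' value table and to 0.02 without background correction and with normexp at an offset of 50. The causes were not tested. When 1 culture was left out the sign of 19 members turned, within these ranges: Mmp2 -0.54 to 0.02, Mmp3 -0.49 to 0.69, Mmp9 -0.43 to 0.32, Mmp10 -0.79 to 0.74, Mmp12 -1.09 to 0.57, Mmp16 -0.17 to 0.80, Mmp17 -0.14 to 0.28, Mmp19 -0.35 to 0.26, Mmp24 -0.14 to 0.05, Adam9 -0.35 to 0.10, Adamts7 -0.27 to 0.24, Adamts8 -0.47 to 0.21, Adamts10 -0.27 to 0.22, Adamts15 -0.60 to 0.33, Plat -0.33 to 0.07, Timp1 -0.07 to 0.13, Timp2 -0.14 to 0.37, Serpinf1 -0.10 to 0.13 and Reck -0.20 to 0.41.

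With 4 cultures in each genotype and slide 2 without WT cultures, no difference between genotypes was resolved for the 35 genes. Probes of the same gene differed in sign in 9 of 14 genes, and that share was not counted over all genes. Dim probes depend on the fitted background, and Timp1, Timp3 and Serpinf1 lay near the top of the scale.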
